A study of Homo sapiens with 9 samples.

Results

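The HOX cluster genes are the 39 human genes whose symbol is HOX, a letter from A to D and a number. They were taken by symbol from the 60230 genes in the deposited tables. There are 11 in the HOXA cluster on chromosome 7, 10 in HOXB on chromosome 17, 9 in HOXC on chromosome 12 and 9 in HOXD on chromosome 2.

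HOX genes encode homeodomain transcription factors that specify position along the body axis, and in adult tissues each cell type keeps a characteristic set of them active. Within a cluster the genes lie side by side in the order in which they are used in the embryo, and genes of different clusters that share a number are paralogs. Polycomb complexes keep clusters silent, Trithorax-type complexes keep them active, retinoic acid induces the low-numbered genes, and HOX proteins bind DNA together with the TALE homeodomain cofactors of the PBX, MEIS and PKNOX families. The developing lung uses mainly low-numbered genes such as HOXA5.

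The data were poly(A) RNA sequencing of the established lung cancer cell line NCI-H358 (human), with 9 libraries in 3 states of 3 libraries each. Sotorasib is a targeted cancer drug, and the series concerns acquired resistance to it. Parental cells were sensitive and untreated. The other states are both NCI-H358-R, a resistant derivative made from the parental line by growth in 250 nM sotorasib for about 2 months, which was profiled without the drug (off drug) or at 250 nM sotorasib on day 4 (on drug). All cells were grown with 10% serum. Resistance was selected in a single derivative, so a difference between the derivative and its parent cannot be told apart from a difference of that 1 line. The labels do not give how long the off-drug cells were without sotorasib, nor that replicates were separate cultures. The p-values therefore measure only how the libraries of a state scatter, and that scatter may be technical.

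The libraries held 25.7 to 34.73 estimated counts in units of 1e6. A gene at 3 counts in 1 library lies at 0.0775 to 0.123 CPM (counts per 1e6 TMM-scaled counts), and 0 counts in all 9 libraries allow up to 0.0108 CPM. These floors cover counting error only, since PCR reads without molecular identifiers are not independent molecules. On-drug libraries stood apart, with TMM scaling factors of 1.113 to 1.124 against 0.9171 to 0.9717 elsewhere. Lung epithelial markers summed to 3444 to 4107 TPM (a level per transcript length, scaled to a sum of 1e6) in parental cells, 3483 to 3969 off drug and 2087 to 2811 on drug, with SFTPB at 0 throughout and SFTPC at 0 in parental and off-drug cells. EPCAM and the 3 keratins KRT8, KRT18 and KRT19 fell on against off drug, while NKX2-1 (30.7 to 134 CPM), CDH1 and NAPSA rose. In bulk RNA, fewer cells with a transcript and less transcript per cell cannot be told apart.

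Promoter windows, from 250 bases before to 50 bases after a transcript start, differed in CpG content between members of 1 cluster. The windows are RefSeq sequence on GRCh38.p14, plus strand, with every CpG dinucleotide in capitals. They are shown for HOXD1, the member with the highest level in every state, and for HOXD8 and HOXD4, which had 0 counts in every library. The regions are chr2:176188418-176188717, chr2:176129455-176129754 and chr2:176151300-176151599 in that order.
HOXD1: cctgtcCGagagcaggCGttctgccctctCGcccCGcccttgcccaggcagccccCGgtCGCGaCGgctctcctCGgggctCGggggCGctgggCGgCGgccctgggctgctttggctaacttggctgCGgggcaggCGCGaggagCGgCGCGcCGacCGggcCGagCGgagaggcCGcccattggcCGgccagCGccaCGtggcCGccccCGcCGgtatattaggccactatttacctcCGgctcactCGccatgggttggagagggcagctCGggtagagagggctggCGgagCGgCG
HOXD8: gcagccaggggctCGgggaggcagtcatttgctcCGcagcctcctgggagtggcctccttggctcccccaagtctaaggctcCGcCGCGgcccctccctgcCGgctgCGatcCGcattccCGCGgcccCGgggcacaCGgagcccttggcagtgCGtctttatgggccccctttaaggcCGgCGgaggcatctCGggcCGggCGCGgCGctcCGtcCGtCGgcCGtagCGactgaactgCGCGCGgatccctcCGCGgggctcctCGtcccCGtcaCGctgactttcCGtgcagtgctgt
HOXD4: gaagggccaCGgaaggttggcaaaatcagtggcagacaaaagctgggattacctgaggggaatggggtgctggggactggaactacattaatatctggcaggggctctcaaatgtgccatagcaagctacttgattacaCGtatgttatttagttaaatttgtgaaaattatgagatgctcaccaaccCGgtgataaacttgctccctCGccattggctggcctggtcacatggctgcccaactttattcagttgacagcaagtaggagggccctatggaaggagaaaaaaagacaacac

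The HOXD1 window held 36 CpG and 74.3% G or C, and the HOXD8 window 34 CpG and 71.7%. The HOXD4 window held 4 CpG and 47.3%. Of 35114 windows in the table, 87.3% had fewer CpG than HOXD1, 84.4% fewer than HOXD8 and 24.5% fewer than HOXD4. A CpG-rich window thus belonged both to the member with the highest level and to one with no counts. Windows were found for 20 of the 39 members, 26 distinct windows in all, 7 of them of HOXA3 and 1 shared by HOXC4 and HOXC5. They had a median of 22.5 CpG (0 to 44) against 14 over all windows and a median of 58.0% G or C against 58.7%.

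Motif letters were searched on both strands of each window. The core promoter element TATAAA was in 5 of the 26 member windows and 11.5% of all windows. TGACAG (the MEIS site) was in 4 and 15.8%, and TGATNNAT (a combined HOX and PBX site) in 3 and 7.4%. CGGAAG (ETS factors) was in 2 and 19.5%. AGGTCA (a retinoid receptor element) was in 0 and 13.8%, and TGANTCA (AP-1) in 0 and 7.71%. No one of these 6 letter strings contains another. The HOXD1 and HOXD8 windows held none of the 6, and the HOXD4 window held TGACAG and CGGAAG.

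Most HOX genes were silent or near silent in all 3 states. Of the 39 members, 7 had 0 counts in every library: HOXB1, HOXD4, HOXD8, HOXD9, HOXD10, HOXD11 and HOXD12. A further 26 members had counts but never reached 10 in any library, and 35 members stayed under 0.5 TPM in every library. Only HOXA3, HOXA5, HOXA6, HOXB3 and HOXD1 passed the low-count filter, 5 of 39 (12.8%), against 70.1% of 19828 protein-coding genes. Members with a mean of at least 1 TPM were 1 in parental cells (HOXD1), 2 off drug (HOXD1 and HOXA3) and 3 on drug (HOXD1, HOXA5 and HOXA6). These are 2.56, 5.13 and 7.69% of members, against 58.6, 58.4 and 60.0% of protein-coding genes. HOXA3 lay close to that line in parental cells, with a mean of 0.933 TPM.

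The clusters differed in what little they held. In HOXA, all 11 members had counts in at least 1 library, and the 8 that were not tested reached at most 8.49 counts and 0.237 TPM. In HOXB, the 9 members not tested reached at most 9 counts and 0.470 TPM, the latter HOXB7 in parental replicate 3. In HOXC, all 9 members had some counts and none was tested, with a highest value of 0.327 TPM. In HOXD, only HOXD1, HOXD3 and HOXD13 had any counts, and HOXD3 and HOXD13 reached at most 3. HOXD1 therefore had neighbours at or near 0 across the whole HOXD cluster.

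The summed level of all members was 3.489, 4.948 and 4.469 TPM in the parental libraries. It was 5.476, 5.381 and 4.935 TPM off drug and 8.061, 7.362 and 9.167 TPM on drug. The on-drug sums all lay above those of the other libraries. HOXD1 made up 26.1 ± 4.41% (SD, n = 3) of that sum in parental cells, 34.2 ± 5.79% off drug and 43.3 ± 2.25% on drug. The HOXA cluster made up 57.3 ± 3.72%, 50.8 ± 8.71% and 43.9 ± 3.84%, mostly as HOXA3, HOXA5 and HOXA6. HOXA3 alone went from 22.1 ± 7.96 and 22.5 ± 11.5% to 6.17 ± 2.19% on drug.

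HOXD1 rose at both steps. It is the low-numbered end gene of the HOXD cluster, the human counterpart of one of the labial-type genes that act in hindbrain and nerve patterning (ENSG00000128645.15, chr2:176188579-176190907 on GRCh38, plus strand). Its level was 1.08, 1.11 and 1.11 TPM in the parental libraries, 2.24, 1.65 and 1.53 TPM off drug and 3.30, 3.35 and 3.98 TPM on drug. The 3 states did not overlap, and the parental libraries were nearly identical. In scaled counts HOXD1 went from 2.40 ± 0.048 CPM (SD, n = 3) to 3.54 ± 0.755 off drug and 5.62 ± 0.674 on drug. By edgeR's quasi-likelihood test with Benjamini-Hochberg adjustment over 17307 genes, the log2 fold change of HOXD1 was 0.55 ± 0.19 (SE) from parental to off-drug cells (adjusted p = 0.02). It was 0.67 ± 0.17 from off to on drug (adjusted p = 0.0031) and 1.22 ± 0.18 from parental to on-drug cells (adjusted p = 1.8e-05), which are 1.47-, 1.59- and 2.34-fold. The first of these rested on off-drug replicate 1, the highest off-drug library, and without it the HOXD1 change was 0.37 (adjusted p = 0.12).

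HAGLR, a long noncoding RNA transcribed from the opposite strand beside HOXD1, rose on drug but not off drug. HAGLR lies at chr2:176164051-176188958, minus strand (ENSG00000224189.8), and its nearest upstream RefSeq start is 96 bases before the HOXD1 start, so that the 2 promoter windows share 195 bases of the HOXD1 sequence printed above. HAGLR was at 1.06, 0.969 and 0.859 TPM in parental libraries, 1.24, 1.07 and 1.03 TPM off drug and 3.68, 3.40 and 3.76 TPM on drug. The on-drug libraries lay apart from the other 6, which overlapped. Its log2 fold change was 0.02 ± 0.14 off drug against parental (edgeR adjusted p = 0.93), 1.57 ± 0.13 on against off drug (adjusted p = 3.8e-08) and 1.59 ± 0.13 on drug against parental (adjusted p = 2.8e-08). HOXD1 shares 158 exon bases (8.0% of its exons) with HAGLR on the opposite strand. No source used here gives the strand setting of the counting, so reads from those 158 bases cannot be told apart.

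HOXA3 fell on drug. This gene acts in the pharyngeal arches and in thymus and parathyroid formation (ENSG00000105997.23, chr7:27106184-27152581, minus strand). Its estimated counts were 45.29, 52.02 and 44 in parental libraries, 47, 67 and 84 off drug and 22, 34 and 25 on drug. All 3 on-drug values lay below the other 6, which overlapped. In scaled counts HOXA3 was at 1.73 ± 0.316 CPM (SD, n = 3) in parental cells, 2.44 ± 0.494 off drug and 0.712 ± 0.179 on drug. The log2 fold change was −1.77 ± 0.28 on against off drug (edgeR adjusted p = 4.1e-05) and −1.27 ± 0.28 on drug against parental (adjusted p = 9e-04). Off drug against parental it was 0.50 ± 0.26 (adjusted p = 0.12).

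The TPM values of HOXA3 were less separated than its counts. They were 0.991, 1.22 and 0.587 in parental libraries, 0.728, 1.01 and 1.75 off drug and 0.390, 0.366 and 0.798 on drug, with overlap between all states. The transcript length behind HOXA3's TPM varied from 33.1 to 100% of its longest value across libraries. That range was 71.4 to 100% for HOXA6, 88.4 to 100% for HOXD1 and 93.3 to 100% for HOXA5. With limma on log2(TPM + 0.1), the on-drug difference of HOXA3 was −1.02 against off drug (adjusted p = 0.055) and −0.76 against parental (adjusted p = 0.13). The fall of HOXA3 was thus called in counts and not in TPM. HOXA3 shares 662 exon bases (15.4%) with the antisense genes HOXA-AS2 and HOXA-AS3, and 0 with HOXA5 or HOXA6.

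HOXA5 rose on drug against off drug. It is the HOX gene best known from lung development, where it acts in the mesenchyme (ENSG00000106004.5, chr7:27141052-27143668, minus strand). Its level was 0.457, 0.776 and 1.10 TPM in parental libraries, 0.506, 0.681 and 0.495 TPM off drug and 1.74, 1.26 and 1.84 TPM on drug. In TPM all on-drug values lay above the other 6, while parental and off-drug values overlapped and the parental libraries were widely spread. Mean scaled counts were 1.33 ± 0.577 CPM (SD, n = 3) in parental cells, 0.884 ± 0.123 off drug and 2.09 ± 0.318 on drug. On that scale HOXA5 in on-drug replicate 2 (1.75 CPM) lay below parental replicate 3 (1.94 CPM), so these states overlapped. The log2 fold change of HOXA5 was 1.24 ± 0.31 on against off drug (edgeR adjusted p = 0.0025). It was 0.66 ± 0.30 on drug against parental (adjusted p = 0.062) and −0.59 ± 0.33 off drug against parental (adjusted p = 0.14).

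Parental replicates 1 and 3 carried the parental spread of HOXA5. Without parental replicate 3 its on-drug difference from parental was 1.03 (adjusted p = 0.0083), and without parental replicate 1 its off-drug difference from parental was −0.87 (adjusted p = 0.029). HOXA5 shares no exon base with the other HOX genes or with the cluster transcripts listed below. Other annotated genes were not checked.

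HOXA6, the next gene in the cluster, passed no test (ENSG00000106006.6, chr7:27145396-27150603, minus strand). It was at 0.412, 0.629 and 0.335 TPM in parental libraries, 0.684, 0.898 and 0.134 TPM off drug and 1.07, 0.871 and 1.19 TPM on drug. One off-drug library reached into the on-drug range. In scaled counts parental replicate 2 (0.561 CPM) did so too, above on-drug replicate 2 (0.511 CPM). The log2 fold change of HOXA6 was 0.72 ± 0.47 on against off drug (edgeR adjusted p = 0.2) and 0.60 ± 0.46 on drug against parental (adjusted p = 0.27). Its counts were 4 to 28.07 per library, and 39.3% of its exon bases (505) are shared with the antisense gene HOXA-AS3.

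HOXB3, which acts in hindbrain segments, was the only tested member outside HOXA and HOXD (ENSG00000120093.12, chr17:48548870-48604912, minus strand). It had 7 to 16 counts per library and at most 0.203 TPM. Its log2 fold changes were −0.42 ± 0.47, 0.15 ± 0.46 and −0.27 ± 0.44 for off drug against parental, on against off drug and on drug against parental (edgeR adjusted p = 0.47, 0.79 and 0.61). Differences of that size were not detectable at this depth.

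**Figure D1:**
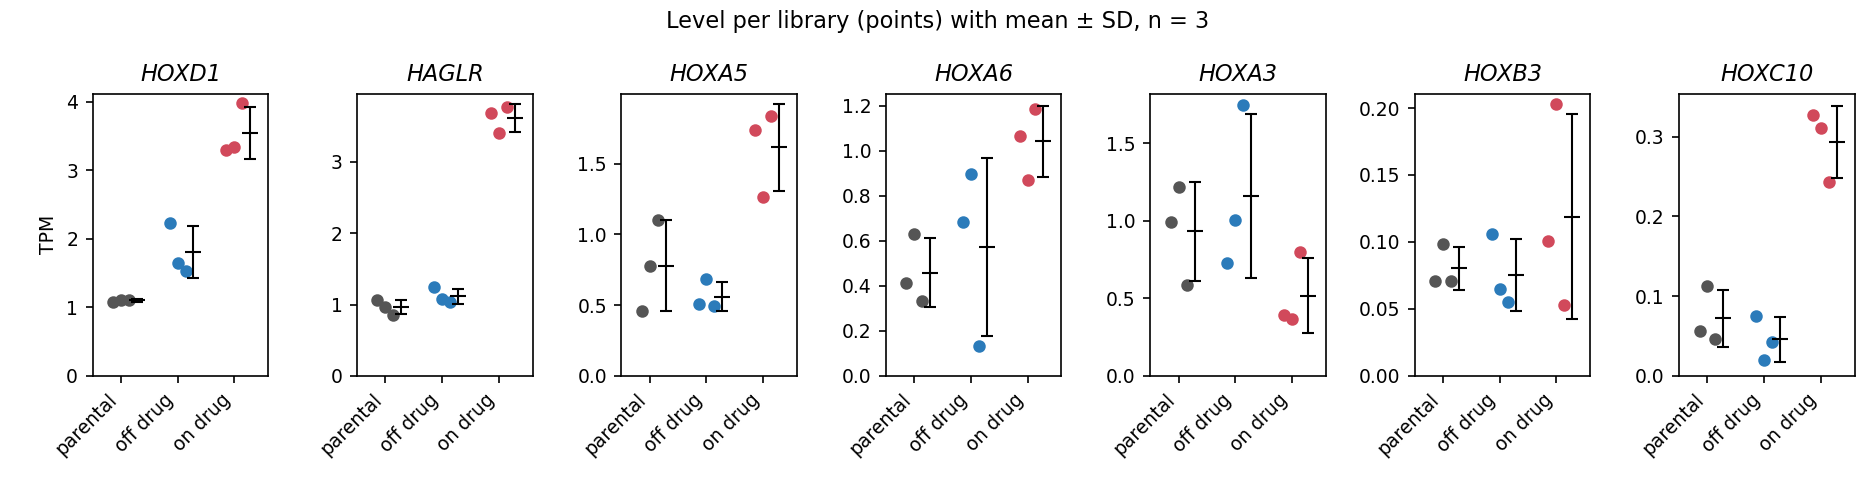
TPM in each library (points) with the mean and SD (bars) of HOXD1, HAGLR, HOXA5, HOXA6, HOXA3, HOXB3 and HOXC10 in the 3 states. On-drug HOXD1 lies between 3.30 and 3.98 TPM, above all other libraries, while the TPM of HOXA3 overlaps between states.

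Among the 5 members tested, off drug against parental, 1 rose (HOXD1), 0 fell and 4 were not called, where 28.4% of all genes tested rose and 26.6% fell (55.0% in either direction). The count of 0 falls was also 0 at an unadjusted p under 0.05 in edgeR and with DESeq2 and limma voom. On against off drug, 2 rose (HOXD1 and HOXA5), 1 fell (HOXA3) and 2 were not called, against 31.4% of all genes rising and 31.2% falling (62.6% together). On drug against parental, 1 rose (HOXD1), 1 fell (HOXA3) and 3 were not called, against 33.4 and 32.9% (66.3% together). The members' median log2 fold changes were −0.12, 0.67 and 0.60, beside 0.00, 0.02 and 0.02 over all genes tested, and these 5 are not all members but those with enough counts. Each pair of comparisons shares 1 group of libraries, so they are not independent.

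Scaling matters for the on-drug libraries. With library size only in place of TMM, the log2 scaling between groups shifted. The shift was 0.256 on against off drug and 0.223 on drug against parental. Genes called then split into 7784 higher and 3585 lower on against off drug, in place of 5431 and 5403, and into 7597 and 4225 on drug against parental, in place of 5777 and 5690. HOXD1 and HOXA3 kept their direction and call on drug under each scaling tried. HOXA5 was called higher on drug than in parental cells with library size only (0.88, adjusted p = 0.014) and with upper-quartile factors (0.70, adjusted p = 0.049).

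**Figure D2:**
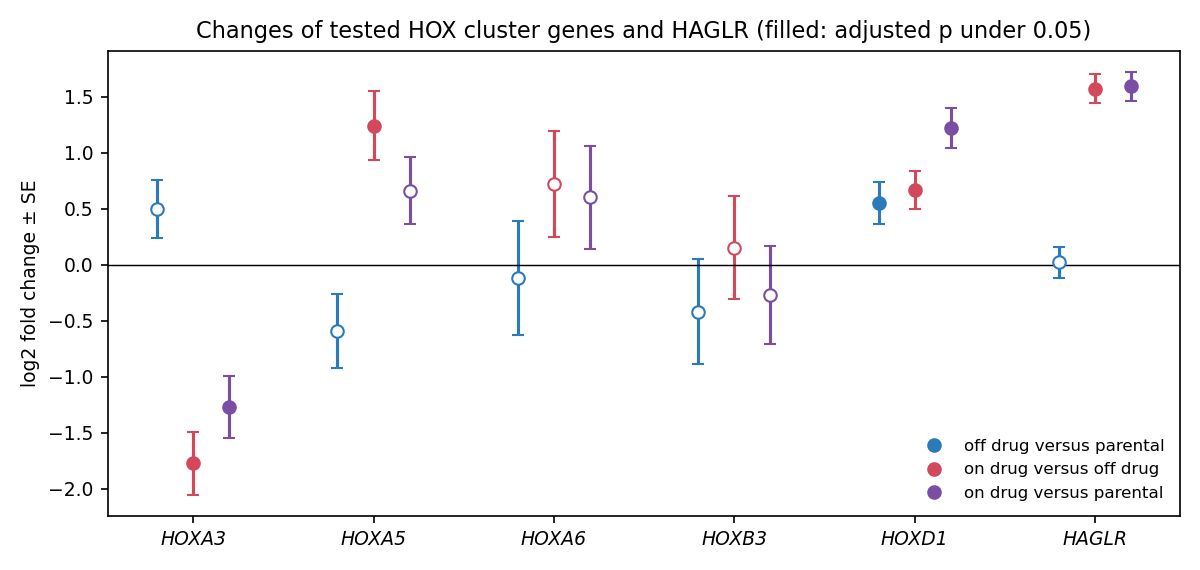
Log2 fold change with SE for the 5 tested HOX genes and HAGLR in each of the 3 comparisons, from edgeR on all 9 libraries. Filled points have an adjusted p under 0.05: HOXD1 in all 3, HAGLR and HOXA3 in both on-drug comparisons, HOXA5 on against off drug.

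HOXC10, a high-numbered gene of limb and posterior axis development, is named here after its values were seen, because it was the only member besides those tested to reach 10 counts. It had 4, 4 and 3 counts in parental libraries, 4, 1 and 3 off drug and 21, 10 and 14 on drug (ENSG00000180818.5, chr12:53985065-53990279, plus strand). All on-drug values lay above the other 6. Those on-drug counts are what singled it out, so no test of it is given. Calls of HOXC10 in alternative fits are not read as results for the same reason. HOXC10 stayed at or under 0.327 TPM.

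The other members not tested had too few counts for a comparison, and their values are given as counts only. Those named were picked after their values were seen. HOXA7 had 1 to 4 counts in parental and off-drug libraries and 6 to 8.49 on drug, and 62.5% of its exon bases are shared with HOXA-AS3. The other way, HOXB8 had 6, 8 and 2 counts over the parental, off-drug and on-drug libraries. HOXC4 had 2, 0 and 0. HOXC13 had 0 counts in parental libraries, 1 over the off-drug libraries and 2, 3 and 5 on drug. HOXC5 had 9 counts in on-drug replicate 1 and 0 in the other on-drug libraries, so its sum came from 1 library. HOXB9, HOXD3 and HOXD13 had 0 counts in parental libraries and 5, 5 and 4 over the off-drug libraries. HOXD13, the last gene of its cluster, had 0 counts on drug.

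Transcripts of the clusters other than the HOX genes were as quiet. Of 20 listed transcripts, 18 noncoding RNAs and the small protein genes PRAC1 and PRAC2, 8 had 0 counts everywhere and 10 more never exceeded 5 counts. Only HAGLR and HOXA-AS3 were tested, and HOXA-AS3 was called in no comparison (log2 fold changes of 0.24, −0.46 and −0.21 with edgeR adjusted p = 0.68, 0.39 and 0.69). HOTAIRM1, in the HOXA cluster, showed 4.75 TPM in off-drug replicate 3 from 1 count, so its TPM there was left unused.

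Genes flanking the clusters ranged from silent to highly expressed. SKAP2, an adaptor protein gene at one end of the HOXA cluster, was at 131 ± 7.47 CPM (SD, n = 3) in parental cells, 291 ± 4.17 off drug and 47.3 ± 1.50 on drug. Its log2 fold change was 1.15 ± 0.07 off drug against parental (edgeR adjusted p = 3.8e-09), −2.62 ± 0.08 on against off drug (adjusted p = 2.1e-13) and −1.47 ± 0.08 on drug against parental (adjusted p = 9.8e-11). SKAP2 thus moved opposite to HOXA5 on against off drug and in the same direction as HOXA3. HIBADH, on the far side of HOXA13, changed by 0.37, −0.68 and −0.31, all called in counts. The last of these was −0.09 with library size only (adjusted p = 0.3) and 0.01 on either TPM scale (adjusted p = 0.95). EVX1, the homeobox gene next to HOXA13, was not tested, with 2 counts over the 9 libraries, nor were SKAP1 (12 counts) and TTLL6 (3 counts) beside HOXB.

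On the HOXD side, LNPK, an endoplasmic reticulum gene, changed by −0.22 off drug against parental (edgeR adjusted p = 0.099), 0.61 on against off drug and 0.39 on drug against parental, the last 2 called. MTX2, a mitochondrial import gene beyond HOXD1, fell in all 3 comparisons by edgeR (−0.25, −0.37 and −0.62). Of these, only the last was called under every alternative run: MTX2 was at −0.11 on against off drug with library size only (adjusted p = 0.25) and at −0.13 off drug against parental on log2(TPM + 1) (adjusted p = 0.18). The off-drug fall was also lost without parental replicate 3 (−0.15), off-drug replicate 1 (−0.21) or off-drug replicate 2 (−0.26). EVX2 had 0 counts in every library. Beside HOXC, CBX5, which encodes heterochromatin protein HP1 alpha, rose off drug by 1.06 ± 0.10 and stayed at 1.02 ± 0.10 over parental on drug (adjusted p = 2.8e-07 and 2.1e-07). Beside HOXB, CALCOCO2, an autophagy receptor gene, fell on drug by 1.05 on the log2 scale against off drug and by 1.06 against parental. SNX11 was not called by edgeR with TMM (−0.24, 0.15 and −0.09). With library size only it was called lower off drug against parental (−0.27, adjusted p = 0.043) and higher on against off drug (0.41, adjusted p = 0.0033), and upper-quartile factors made the same calls. HNRNPA3 and SMUG1 rose in each comparison by 0.26 to 0.61, though some of these calls were lost when 1 library was left out. SNX10, on the SKAP2 side of HOXA, changed by 1.45 ± 0.55 on against off drug (edgeR adjusted p = 0.032). It was not called with DESeq2 (1.47, adjusted p = 0.06) or limma voom (1.27, adjusted p = 0.055). The SNX10 call was also lost in edgeR without any 1 of the off-drug libraries, and without on-drug replicate 2 (0.99, adjusted p = 0.18).

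**Figure D3:**
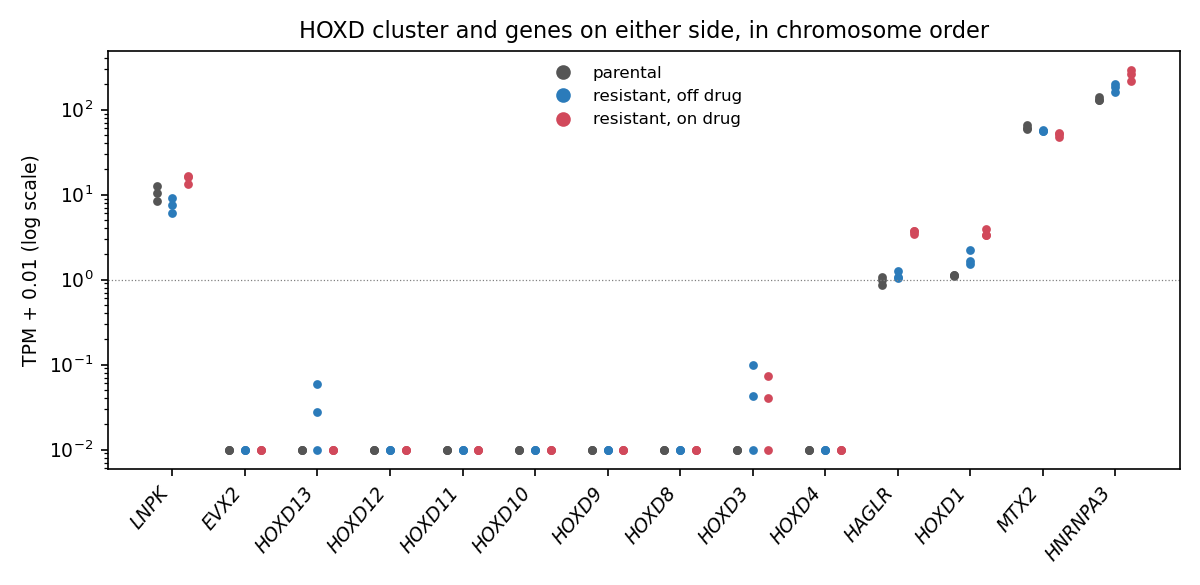
TPM + 0.01 on a log axis for genes of the HOXD cluster and their flanking genes in chromosome order, one point per library, coloured by state, with a dotted line at 1. LNPK, MTX2 and HNRNPA3 lie above the line, and HOXD1 and HAGLR stand over HOXD neighbours at or near 0.

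Among the TALE cofactors, PKNOX2 fell strongly on drug and MEIS3 fell at both steps. Of 9 tested, off drug against parental, 1 rose, 6 fell and 2 were not called (median log2 fold change −0.59), where 28.4% of all genes tested rose and 26.6% fell. On against off drug, 2 rose and 3 fell (31.4 and 31.2% of all genes), and on drug against parental 1 rose and 4 fell (33.4 and 32.9%). With library size only, the last count became 5 higher and 4 lower.

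PKNOX2 was low on drug. Its mean was 9.63 ± 1.21 CPM (SD, n = 3) in parental cells, 6.40 ± 0.571 off drug and 0.0958 ± 0.0653 on drug, the last from 6, 1 and 4 counts. Its log2 fold change was −5.99 ± 0.28 on against off drug (edgeR adjusted p = 4.1e-11), a value that depends on few on-drug counts. MEIS3 fell at both steps, from 4.98 ± 0.029 CPM (SD, n = 3) to 1.09 ± 0.38 off drug and 0.263 ± 0.113 on drug (edgeR adjusted p = 5.3e-06 and 9.3e-05). With limma on log2(TPM + 1) the MEIS3 change on against off drug was −0.36 and not called (adjusted p = 0.05). PBX2 rose off drug by 1.11 ± 0.09 and was still 0.56 ± 0.09 above parental on drug (adjusted p = 3e-08 and 3e-05). MEIS2 fell off drug by 0.91 on the log2 scale and rose on drug by 1.12, which left it 0.21 from parental (adjusted p = 0.1). MEIS1 fell off drug by 1.03 and was 0.92 lower than parental on drug on the log2 scale in counts. With limma on log2(TPM + 0.1) these MEIS1 changes were −0.75 (adjusted p = 0.075) and −0.57 (adjusted p = 0.13). PKNOX1 and PBX4 were called in no comparison by edgeR with TMM. On drug against parental, library size only called both higher (0.29, adjusted p = 0.011 for PKNOX1, and 0.68, adjusted p = 0.036 for PBX4), and both TPM scales called PBX4 higher.

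**Figure D4:**
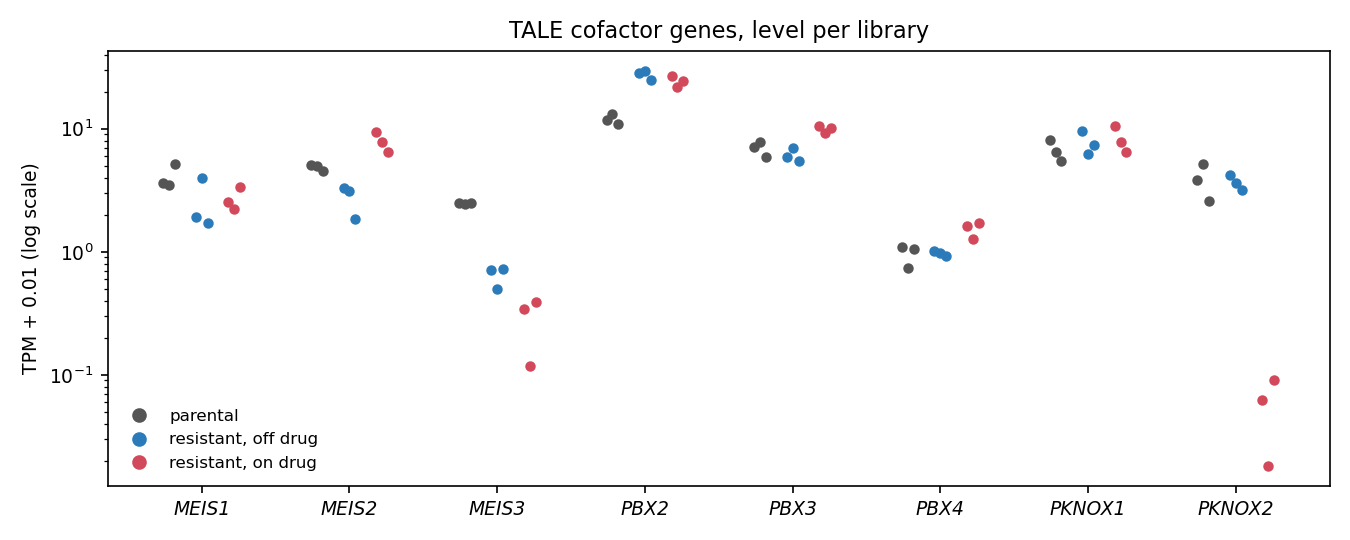
TPM + 0.01 on a log axis for 8 TALE cofactors in each library, by state. PKNOX2 is low in the 3 on-drug libraries, and MEIS3 steps down from parental to off drug to on drug.

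The core Polycomb genes EZH2 and EED rose at both steps. Of 20 Polycomb subunits tested, off drug against parental, 13 rose, 0 fell and 7 were not called. Of all genes tested, 28.4% rose and 26.6% fell. The count of 0 falls was 0 at an unadjusted p under 0.05, with DESeq2 and with limma voom, and 1 with upper-quartile factors. On against off drug 7 rose and 7 fell (31.4 and 31.2% of all genes), and on drug against parental 10 rose and 6 fell (33.4 and 32.9%). With library size only these became 10 and 7, and 11 and 3. EZH2, the catalytic subunit that methylates histone H3 at lysine K27, went from 17.1 ± 1.67 CPM (SD, n = 3) in parental cells to 25.0 ± 2.59 off drug and 55.5 ± 5.12 on drug. Its log2 fold change was 0.55 ± 0.11 off drug against parental (edgeR adjusted p = 4e-04), 1.15 ± 0.10 on against off drug (adjusted p = 8.1e-08) and 1.70 ± 0.11 on drug against parental (adjusted p = 8.8e-10). EED, which binds the methylated histone, rose in both steps too (0.78 and 0.48), and stood 1.26 ± 0.08 above parental on drug (adjusted p = 1.8e-09).

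JARID2 and PHC2, accessory subunits of Polycomb complexes, rose off drug and fell on drug. JARID2 changed by 1.55 ± 0.10 off drug against parental and by −1.95 ± 0.10 on against off drug, and PHC2 by 0.76 and −1.89. CBX2, a chromodomain subunit, was level off drug (0.03, edgeR adjusted p = 0.77) and rose on drug by 0.80.

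Of 14 Trithorax-type and related enzymes, 7 rose and 3 fell off drug against parental (28.4 and 26.6% of all genes). On against off drug 5 rose and 6 fell (31.4 and 31.2%), and on drug against parental 6 rose and 3 fell (33.4 and 32.9%). With library size only, the on against off drug counts became 5 and 1, and those on drug against parental 9 and 2. KMT2A, the methyltransferase best known as an activator of HOXA genes, rose off drug by 0.74 ± 0.15 (edgeR adjusted p = 0.00071). KDM6B, a demethylase that removes the Polycomb mark, fell in each comparison, by 0.29, 0.99 and 1.28 on the log2 scale. MLLT1, a reader protein of elongation complexes, rose in each, by 0.46, 0.54 and 1.00.

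Of 18 listed retinoid and CDX genes, 12 were tested. Off drug against parental 3 rose, 4 fell and 5 were not called (28.4 and 26.6% of all genes rose and fell). On against off drug 4 rose and 8 fell (31.4 and 31.2%), and on drug against parental 3 rose, 7 fell and 2 were not called (33.4 and 32.9%). With library size only the last 2 pairs of counts became 4 and 6, and 5 and 7. ALDH1A1, a retinoic acid synthesis enzyme, was at 0.33 CPM in parental cells, 0.408 off drug and 8.64 on drug, a log2 fold change of 4.39 ± 0.26 on against off drug. ALDH1A3, an enzyme of the same step, fell to 47.3 CPM on drug from 212 in parental and 124 in off-drug cells. RARG, a retinoic acid receptor, changed by −1.89 on against off drug, and CRABP2, a retinoic acid carrier, was 1.41 lower on drug than in parental cells on the log2 scale. CDX1 and CDX4, inducers of HOX genes in the gut and the embryo, had 0 counts in every library.

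Fibroblast markers were highest in sum in the on-drug state. They summed to 8.002 to 10.36 TPM in parental cells, 6.129 to 7.837 off drug and 79.8 to 99.46 on drug. Members with a mean of at least 1 TPM were 2, 2 and 3 of 9, and LUM alone held 69.45 TPM on drug. COL3A1, DCN and THY1 were at 0 in all parental libraries, COL3A1 was at 0 off drug, and no marker of the list was at 0 in all on-drug libraries. Of 8 tested, 3 rose and 1 fell off drug against parental (28.4 and 26.6% of all genes). On against off drug 6 rose (31.4%), and on drug against parental 8 rose (33.4%). COL3A1 had 197, 162 and 175.12 counts on drug and 0 elsewhere. COL1A2 had 16, 18 and 25 counts on drug and at most 2 elsewhere. Both passed the low-count filter through the on-drug libraries alone. They are among the 8 tested, so the on-drug counts of rises cannot be set against the shares of all genes. Endothelial markers summed to 1.556 to 2.407, 4.564 to 4.923 and 3.069 to 4.492 TPM in the 3 states, and leukocyte markers to 3.656 to 4.502, 2.001 to 5.287 and 2.552 to 2.743 TPM. The part of these markers in the HOX results was not tested.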

How the data were processed

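Poly(A) RNA of the 9 libraries was sequenced, per the labels' protocols, as paired-end reads after NEBNext Ultra II preparation. The authors deposited estimated counts per gene, not scaled for depth, and TPM values scaled for transcript length and depth. The tools listed in the submitters' processing notes are Salmon 0.14.1, FastQC 0.12.1 and bcl2fastq 2.17, with the build GRCh38.p13 and without stated roles. The sources used here give no annotation release, strand setting or way of summing to genes.

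The design assumed whole counts, so estimated counts were rounded. Fold changes came from edgeR 4.0.16 (R 4.3.3) over all 9 libraries with TMM and filterByExpr (minimum count 10, minimum total 15), a mean per group and no covariate. The fit kept 17307 genes and had 6 residual degrees of freedom. Genes were called when the p-value, adjusted by Benjamini-Hochberg over the whole table, was under 0.05. The SE was the size of the log2 fold change divided by the square root of F. CPM values use TMM. Steps were tested on simulated counts.

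Members follow from their symbols, but the choice of this gene family and of the lists was made with earlier results of these data known. Members tested with a mean of at least 1 TPM or a call of at least 2-fold are given per library. Each list gives at most 4 called genes per comparison, those with the largest changes whose average log2 CPM is 1 or more, and flanking genes are all eligible. HOXB3, HOXC10, HOTAIRM1, HOXA-AS3, CDX1, CDX4, PKNOX1, PBX4 and members given by counts alone were added beside this rule. Positions are from GENCODE 29 (GRCh38), matched by identifier. Of the genes, 60089 have a symbol.

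Alternatives were RLE and upper-quartile factors, library size only, no filter, a stricter filter (1 CPM in 3 libraries), DESeq2 1.42.0, limma 3.58.1 with voom, limma on TPM at pseudocounts of 1 and 0.1, a block for replicate number, fits restricted to the compared groups, and leave-one-out fits. No pair of replicates agreed within sampling noise (lowest chi-square per degree of freedom 5.114). Some items are not reported here. The reads were not used here.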

Additional observations from a re-analysis of the deposited data

How the results depend on the processing

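The calls of HOX members among off-drug against parental cells were 1 higher and 0 lower. Leaving out each library gave 0 to 1 higher, the 0 without off-drug replicate 1, and 0 to 1 lower, the 1 without parental replicate 1 (HOXA5). On against off drug, 2 HOX members were higher and 1 lower. On log2(TPM + 1), where 1 member was tested, these were 1 and 0, and on log2(TPM + 0.1) they were 3 and 0. DESeq2, no filter and fits restricted to the compared groups also gave 3 higher, the third being HOXC10 each time. Leaving out each library gave 2 to 3 higher, the third being HOXC10, and 1 to 1 lower. The on-drug counts singled HOXC10 out, and where a low-count filter was used it passed only through them. Its calls are therefore not read as results, also with DESeq2 and with no filter. On drug against parental, 1 was higher and 1 lower. With upper-quartile factors, library size only, no filter or limma voom 2 HOX members were higher (HOXD1 and HOXA5). On log2(TPM + 0.1) 3 were higher, the third being HOXC10. Leaving out each library gave 1 to 2, the added member being HOXA5 without parental replicate 3 and HOXC10 in the other such fits. On both TPM scales 0 were lower.

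HOX members with a mean of at least 1 TPM numbered 1, 2 and 3 in parental, off-drug and on-drug cells. At 0.5 TPM they numbered 3, 4 and 4 and at 2 TPM 0, 0 and 1. Leaving out libraries gave 1 to 2 in parental (2 without parental replicate 3), 1 to 2 off drug (1 without off-drug replicate 3) and 2 to 3 on drug.

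HIBADH on drug against parental turned from −0.31 to 0.01 in both TPM fits, and HNRNPA1 on against off drug from −0.00 to 0.25 with library size only (adjusted p = 0.016). The cause was not tested. Of 101 named gene results, 76 kept direction and call under every alternative run. The replicate block gave 1 and 0, 2 and 1, and 1 and 1 HOX members and changed no call of a named gene. Replicate numbers gave no clear sign of pairing. Same-numbered libraries correlated at −0.034 to 0.135 (9 pairs) and others at −0.0995 to 0.0668 (18 pairs), and 3 of 9 correlated best with their own number. With 3 libraries per state, these correlations cannot exclude a shared day or batch. Depth limits the 34 members not tested.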
